A study of Mus musculus with 14 samples.

Results

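The comparison described here sets amifostine against nilestriol in mouse bone marrow, on 4 of the 14 arrays of the series, chosen by their pretreatment and tissue. Each array held microRNA (miRNA) labelled from RNA pooled from 3 male C57BL/6 mice aged 6 to 8 weeks, 12 h after gamma irradiation or no irradiation. The amifostine mice received 10 mg/kg into the abdomen (i.p.) 0.5 h before 0 or 8 Gy. The nilestriol mice received 150 mg/kg into the stomach (i.g.) 48 h before 0 or 8 Gy. Each combination of drug and dose had 1 array, so the drugs were compared within each dose and over both doses together. Phosphate-buffered saline (PBS) given i.p. or i.g., also at 0 and 8 Gy, gave 4 further bone marrow arrays. The difference between the PBS routes also holds the variation between single pools and arrays. Since no group had a second array, the spread behind the p-values over both doses came from how the 10 bone marrow arrays (these 8 and 2 of another drug, CBLB502) scattered around the fit. The spread behind the p-values of the irradiation difference came from the 4 PBS arrays alone. Either may be partly technical. Drug, route, dose in mg/kg and time before irradiation differed together, and so did the position on the slide, so these cannot be told apart. All 4 drug arrays lay on the same slide and in the same scan batch, and the PBS arrays lay on another slide.

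Amifostine is a thiol prodrug that scavenges radicals once dephosphorylated in tissue, and nilestriol is a long-acting oestrogen derived from oestriol. Both have been studied as radioprotectants of the blood-forming system. A miRNA is a short RNA that guides repression of messenger RNAs through its seed, bases 2 to 8 from its 5′ end, and miRNAs with the same seed address largely the same sites. In bone marrow many miRNAs mark a lineage: miR-451a and miR-144 accumulate in maturing red cells, miR-223 in granulocytes and monocytes, miR-150 and miR-181 in lymphoid cells, miR-126 and miR-125b in stem and progenitor cells and, for miR-126, in endothelium, and miR-199a with miR-214 in stromal cells. In bulk RNA a smaller share of cells of a type and less of the miRNA per cell cannot be told apart.

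The mature sequences below are from RefSeq (GRCm38.p6), 5′ to 3′, with the seed in capitals. Of the 371 miRNAs tested, 290 had a RefSeq mature sequence under the array's name. The red-cell miRNAs are shown first, since their list had the largest median difference over both doses of the erythroid, myeloid and lymphoid lists. miR-144 and miR-451a lie together on the plus strand of chromosome 11, at chr11:78073010-78073032 for miR-144-5p, chr11:78073047-78073066 for miR-144-3p and chr11:78073186-78073207 for miR-451a. RefSeq places no other gene over miR-144, and over miR-451a only the antisense miRNA gene Mir451b.
miR-451a: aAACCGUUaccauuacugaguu
miR-144-5p: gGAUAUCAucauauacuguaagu
miR-144-3p: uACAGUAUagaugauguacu

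The next group was lower with amifostine at both doses. miR-223-3p (chrX:96242884-96242905, plus strand) lies inside the long noncoding RNA gene F630028O10Rik. miR-10a-5p (chr11:96317186-96317208) lies within the span of Hoxb3 and miR-10b-5p (chr2:74726074-74726096) within those of Hoxd3 and Hoxd4. The miR-10 pair has the same seed.
miR-223-3p: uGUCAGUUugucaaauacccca
miR-10a-5p: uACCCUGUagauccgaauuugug
miR-10b-5p: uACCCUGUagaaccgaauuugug

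Other miRNAs named for low unadjusted p-values follow. miR-101b-3p lies at chr19:29135338-29135356 within Rcl1, miR-484 at chr16:14159630-14159651 in no other gene, and miR-3474 at chr2:158638583-158638604 within Actr5. The first pair was higher with amifostine and miR-3474 was lower.
miR-101b-3p: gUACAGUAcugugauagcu
miR-484: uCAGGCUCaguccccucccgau
miR-3474: cCCUGGGAggagacguggauuc

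The last set gives the stromal and progenitor miRNAs whose order between the drugs turned with irradiation, and representatives of the growth-associated families. miR-199a-3p has genes at chr1:162217883-162217904, within Dnm3 and Dnm3os, and chr9:21496498-21496519, within Dnm2. miR-125b-5p has genes at chr9:41581940-41581961, within Mir100hg, and chr16:77646279-77646300. miR-20b-5p (chrX:52742159-52742181) and miR-25-3p (chr5:138165332-138165353, within Mcm7) belong to the miR-17-92 paralogs and differ in seed.
miR-199a-3p: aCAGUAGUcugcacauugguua
miR-125b-5p: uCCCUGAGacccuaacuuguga
miR-100-5p: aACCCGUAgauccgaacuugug
let-7e-5p: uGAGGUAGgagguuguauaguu
miR-20b-5p: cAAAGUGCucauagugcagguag
miR-25-3p: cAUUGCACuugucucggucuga

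Of 1247 mouse miRNAs on the array, 403 and 377 were detected with amifostine at 0 and 8 Gy, and 394 and 380 with nilestriol. The median intensity of the detected miRNAs was 43.6 to 46.4 units on the 4 arrays, and none was saturated. Levels below are log2 of the signal divided by the array's 75th percentile, with a floor at -5.31. The bone marrow label was checked against lineage miRNAs: miR-223-3p, miR-142-3p, miR-451a, miR-144-3p and miR-150-5p were detected on all 4 arrays, and the liver miRNA miR-122-5p, the neuronal miR-124-3p and miR-9-5p and the epithelial miR-200a-3p and miR-141-3p on 0 of 4. The other epithelial markers, miR-200c-3p and miR-200b-3p, were detected on 4 and 1. Among muscle markers, miR-1a-3p and miR-133b-3p were detected on all 4, miR-133a-3p on 3 and miR-206-3p on 1. Of the stromal and endothelial markers, miR-126-3p, miR-199a-3p and miR-214-3p were detected on all 4, miR-143-3p on 1 and miR-145a-5p on 0. The nilestriol array at 0 Gy stood apart. Among the 10 bone marrow arrays it held the highest level of 53 and the lowest level of 83 of the 371 tested miRNAs, 136 in all, against 54 and 44 for the amifostine arrays at 0 and 8 Gy and 30 for nilestriol at 8 Gy. The PBS i.p. arrays held 109 and 123. Every difference at 0 Gy rests on the unirradiated nilestriol array, so both doses are given throughout. The difference at 8 Gy uses the 8 Gy arrays alone, and a value given as without an array comes from the fit to the other 9.

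No miRNA passed the test of amifostine against nilestriol over both doses (0 higher and 0 lower of 371, 0% called, limma with Benjamini-Hochberg adjustment), and the smallest adjusted p was 0.491. At an unadjusted p under 0.05 there were 34 miRNAs, 23 higher with amifostine (6.20% of those tested) and 11 lower (2.96%). The median standard error (SE) of the log2 difference was 0.24. In data simulated with these arrays' spread, 55% of miRNAs made to differ by a log2 of 1 and 96.7% of those differing by 2 were called. The simulated miRNAs varied independently and without a floor. The shares also depend on how many miRNAs were made to differ, so they may not hold for the real arrays. None of the 371 was at least 2-fold apart in the same direction at both doses. At 0 Gy 17 were at least 2-fold higher with amifostine (4.58%) and 19 at least 2-fold lower (5.12%), and at 8 Gy 6 (1.62%) and 4 (1.08%).

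The difference between the drugs was wider on the unirradiated than on the irradiated arrays, with 1 array per drug and dose. The unirradiated pair includes the nilestriol array that stood apart, and its part in the wider difference was not tested. The standard deviation of the log2 difference across the 371 miRNAs was 0.64 at 0 Gy and 0.43 at 8 Gy, against 0.30 and 0.31 between the i.p. and i.g. PBS arrays. Its median was 0.15 at 0 Gy and -0.0048 at 8 Gy. Across miRNAs, which are not independent replicates, the differences at the 2 doses correlated at Pearson's r = 0.18 and Spearman's rho = 0.23 (n = 371). The irradiated arrays of the 2 drugs were the closest pair of the 4, with r = 0.989 over the 340 miRNAs detected on all of them, and the unirradiated pair had r = 0.967. Over all tested miRNAs 124 were higher with amifostine at both doses (33.4%) and 97 lower at both (26.1%). The plot of the difference at each dose shows this spread, with the miRNAs far to the left further apart at 0 Gy than at 8 Gy.

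**Figure D1:**
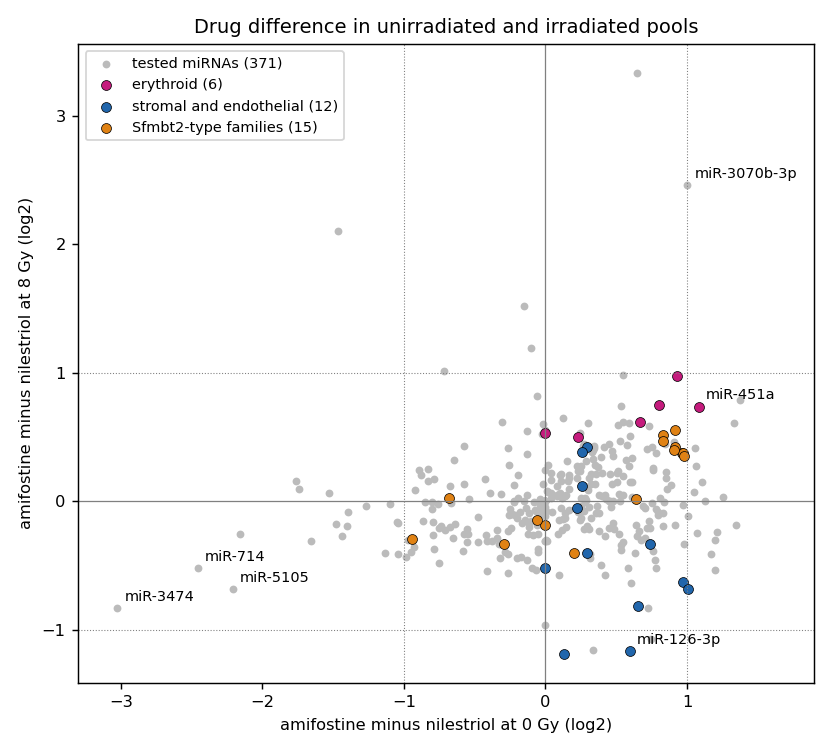
Log2 difference between amifostine and nilestriol at 0 Gy (horizontal axis) and at 8 Gy (vertical axis), 1 point per tested miRNA (371), with dotted lines at 2-fold. Erythroid miRNAs (pink) lie at or above 0 on both axes, stromal and endothelial miRNAs (blue) mostly right of 0 and below it, and miR-3474, miR-714 and miR-5105 far left.

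Of the 6 red-cell miRNAs tested, 5 had higher values with amifostine than with nilestriol at both doses, and none passed the test. miR-451a, the most abundant of them and a miRNA needed for erythroid maturation, was at log2 levels of 6.57 and 8.23 with amifostine at 0 and 8 Gy and at 5.49 and 7.49 with nilestriol. At each dose the amifostine array was higher, by 1.08 and 0.74, while the irradiated nilestriol array was above the unirradiated amifostine array. Its difference over both doses was 0.91 ± 0.27 (SE), a 1.88-fold ratio with a 95% interval of 0.27 to 1.55 on the log2 scale, which did not pass (limma, adjusted p = 0.491). miR-144-5p, from the same cluster, was at -0.92 and 0.35 with amifostine and at -1.72 and -0.39 with nilestriol, a difference of 0.77 ± 0.24. miR-144-3p, from the other arm of the same hairpin, was at -0.82 and 1.25 against -1.49 and 0.64. The array's miR-3107-5p, later renamed miR-486b-5p and abundant in red cells, was at 1.16 and 3.02 against 0.23 and 2.05, a difference of 0.95 ± 0.30. All of these had the same order at each dose as miR-451a.

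The 5 of 6 erythroid miRNAs higher at both doses stand beside 33.4% of all tested miRNAs. The other member, miR-3107-3p, was at the floor with both drugs at 0 Gy and 0.53 higher at 8 Gy. The 6 are not independent, since miR-451a and both strands of miR-144 share a cluster and both strands of miR-3107 a hairpin. Among the 5, miR-144-3p differed by 0.64 ± 0.49 over both doses. miR-486-3p differed by 0.37 ± 0.29 and was detected on 3 of the 4 arrays. Of the 6, 3 had an unadjusted p under 0.05, beside 6.20% of all tested miRNAs in that direction. The drug groups overlapped for all 6, while 13.7% of all tested miRNAs were higher with amifostine without overlap. The median difference of the list was 0.73 at 0 Gy and 0.68 at 8 Gy, beside 0.15 and -0.0048 over all tested miRNAs. The summed signal of the 6 was 98.4 and 312 times the array's 75th percentile with amifostine and 46.7 and 186 with nilestriol. The i.p. PBS arrays were also above the i.g. PBS arrays for these miRNAs, by a median of 0.25 at 0 Gy and 0.40 at 8 Gy. Subtracting the PBS route difference left 0.60 for miR-451a and a list median of 0.47. Without the unirradiated nilestriol array miR-451a differed by 0.54 and the list median was 0.45, and without the irradiated amifostine array 0.46. The PBS arrays had miR-451a at 6.60 to 6.89 without irradiation and 7.76 to 8.09 with it, and both nilestriol arrays were below the PBS arrays of their dose. The PBS arrays lay on another slide than the drug arrays.

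**Figure D2:**
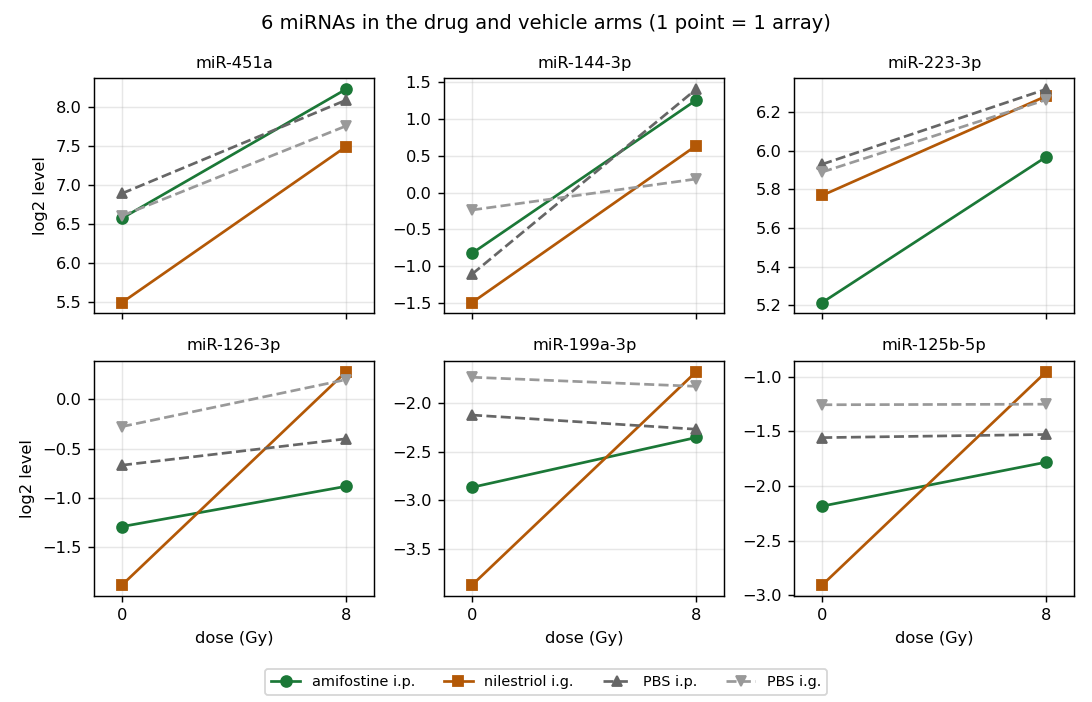
Log2 levels (signal over the array's 75th percentile, vertical axes of different range) at 0 and 8 Gy for 6 miRNAs in the amifostine, nilestriol and PBS arms, 1 array per point. For miR-451a the nilestriol line lies below the others at both doses, for miR-223-3p the amifostine line does, and for miR-126-3p, miR-199a-3p and miR-125b-5p the drug lines cross.

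Of the granulocyte and monocyte miRNAs, miR-223-3p had the largest difference, and it was lower with amifostine. miR-223-3p, which restrains granulocyte production, was at 5.22 and 5.97 with amifostine and at 5.77 and 6.28 with nilestriol. Both amifostine arrays were lower than the nilestriol array of their dose, by 0.55 and 0.31, although the irradiated amifostine array was above the unirradiated nilestriol array. The difference over both doses was -0.43 ± 0.15, 1.35-fold lower with amifostine (limma, adjusted p = 0.491). It was -0.48 after the PBS route difference was subtracted. The 4 PBS arrays had 5.89 to 6.32, with the 2 routes within 0.055 of each other at each dose. Of the 6 myeloid miRNAs tested 3 were lower and 1 higher with amifostine at both doses, beside 26.1% and 33.4% of all tested miRNAs. The list median was -0.02 at 0 Gy and -0.08 at 8 Gy. miR-142-3p, expressed throughout blood cells, was at 2.80 and 2.84 with amifostine and 2.72 and 2.72 with nilestriol. The miR-23a, miR-27a and miR-24-3p cluster members differed by at most 0.14 at either dose.

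The miR-10 pair was lower with amifostine. miR-10a-5p, expressed from the Hoxb cluster in progenitors, was at -1.81 and -1.01 with amifostine and -0.88 and -0.65 with nilestriol. miR-10b-5p was at -4.85 and -4.03 against -4.07 and -3.65. For miR-10a-5p both amifostine arrays were below both nilestriol arrays, and for miR-10b-5p the order held within each dose. The differences over both doses were -0.64 ± 0.22 and -0.58 ± 0.22 (limma, adjusted p = 0.491 for each). Without the unirradiated amifostine array they were -0.39 and -0.33. miR-10b-5p was dim, and with normexp background correction its difference was 0.026.

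Of the 8 lymphoid miRNAs tested, 6 had higher values with amifostine at both doses, beside 33.4% of all tested miRNAs, and none passed the test. miR-150-5p, abundant in mature B and T cells, was at 0.34 and -0.22 with amifostine and -0.51 and -0.66 with nilestriol. miR-181b-5p, a miRNA of early lymphoid cells, was at -1.09 and -2.22 against -1.95 and -2.45. miR-155-5p, induced in activated lymphocytes and macrophages, was at -2.17 and -2.41 against -2.93 and -2.83. For miR-150-5p and miR-155-5p both amifostine arrays were above both nilestriol arrays. The other members were miR-150-3p, which differed by -0.06 at 0 Gy and 0.82 at 8 Gy, and miR-342-3p, which differed by 0.52 and -0.25. In 5 of the 8 the groups did not overlap, beside 13.7% of all tested miRNAs in that direction. The 8 are not independent, since the 4 miR-181 members share a seed and both strands of miR-150 are included. The list median was 0.68 at 0 Gy and 0.24 at 8 Gy, and the PBS route difference had medians of 0.33 and 0.26.

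Of the 11 tested members of the miR-17-92 cluster and its paralogs, which promote proliferation of progenitors, 10 had higher values with amifostine at both doses. That stands beside 33.4% of all tested miRNAs, and none of the 11 passed the test. miR-25-3p was at 1.40 and 2.35 with nilestriol at 0 and 8 Gy, and the amifostine arrays were 0.60 and 0.51 higher. miR-20b-5p was at 1.12 and 1.08 against 0.64 and 0.73. miR-92a-3p was at 1.95 and 2.23 against 1.38 and 1.80. The remaining member, miR-363-3p, was at the floor with both drugs at 8 Gy. In 7 of the 11 the drug groups did not overlap, against 13.7% of all tested miRNAs. The list median was 0.39 at 0 Gy and 0.36 at 8 Gy, with 0.20 and 0.28 between the PBS routes. It was 0.12 once the route difference was subtracted. The 5 members with the seed AAAGUGC differed by 0.34 to 0.42 over both doses. The 11 are not independent, since members share clusters and some share a seed.

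Other broadly expressed families were mixed. Their counts stand beside 33.4% of all tested miRNAs higher with amifostine at both doses, and 24.0% higher at 0 Gy and lower at 8 Gy. The medians over all tested miRNAs were 0.15 at 0 Gy and -0.0048 at 8 Gy. Of the 9 let-7 miRNAs, which favour differentiation over proliferation, 6 were higher with amifostine at both doses and 3 were higher at 0 Gy and lower at 8 Gy. let-7f-5p was at 3.45 and 3.80 with amifostine and 2.84 and 3.46 with nilestriol. The let-7 list median was 0.45 at 0 Gy and 0.24 at 8 Gy, beside 0.24 and 0.09 between the PBS routes. The miR-15/16 family, which represses cell-cycle genes, had 3 of 6 members higher at both doses and medians of 0.31 and 0.12, beside -0.01 and 0.10 between the PBS routes. The miR-30 family had 5 of 6 higher at both doses, and miR-30a-5p was at -1.40 and -0.06 with amifostine against -2.13 and -0.64 with nilestriol. The miR-30 medians were 0.38 and 0.21, beside 0.09 and 0.39 between the PBS routes. Over both doses the let-7, miR-15/16 and miR-30 medians of 0.32, 0.32 and 0.29 were 0.16, 0.10 and 0.07 once the route difference was subtracted, and 0.10, -0.06 and 0.09 without the unirradiated nilestriol array. Members higher with amifostine without overlap of the drug groups numbered 0 for let-7, 0 for miR-15/16 and 1 for miR-30, beside 13.7% of all tested miRNAs. The miR-29 members, which repress collagens and other matrix genes, differed by at most 0.26 at either dose.

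The 6 tested miRNAs reported to target the oestrogen receptor messenger RNA, examined because nilestriol is an oestrogen, were all higher with amifostine at both doses, with medians of 0.29 and 0.31. None passed the test. Over all tested miRNAs 33.4% were higher at both doses, and the medians were 0.15 and -0.0048. For the 6 miRNAs the PBS route difference had medians of -0.01 and 0.40. miR-222-3p was at -2.25 and -1.21 with amifostine and -2.75 and -1.81 with nilestriol. miR-221-3p, its cluster partner, was at -1.47 and -0.87 against -1.80 and -1.19. miR-22-3p differed by 0.01 at 0 Gy and 0.28 at 8 Gy. Of the 6, 3 are also in the miR-17-92 list.

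**Figure D3:**
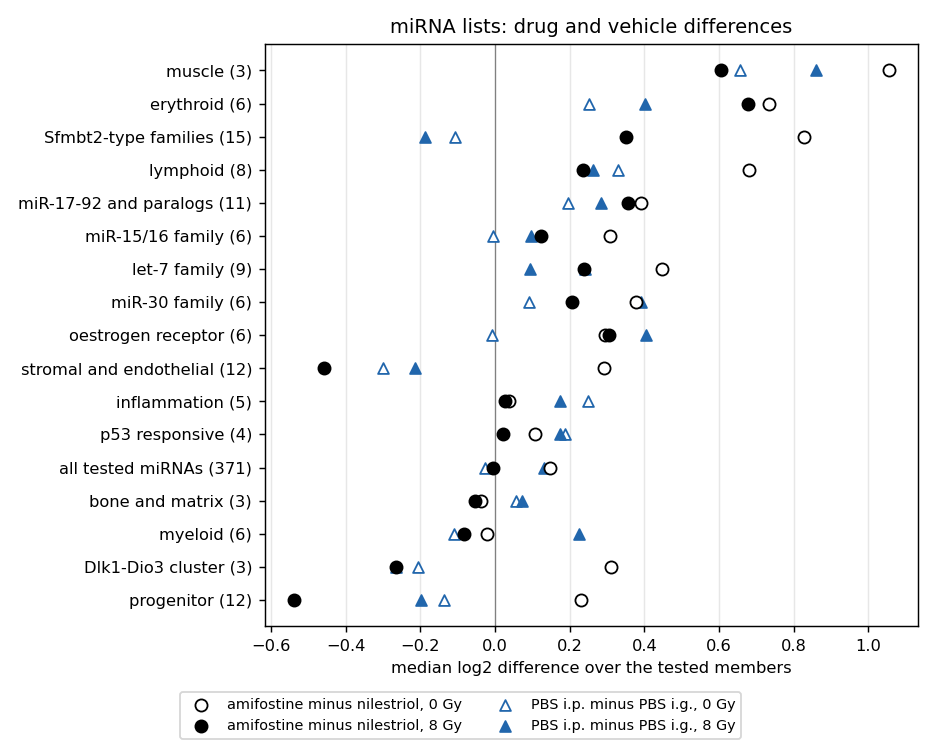
Median log2 difference over the tested members of each list (number in brackets) between amifostine and nilestriol (circles) and between i.p. and i.g. PBS (triangles), open at 0 Gy and filled at 8 Gy. Erythroid medians are 0.73 and 0.68 for the drugs and 0.25 and 0.40 for the PBS routes, and stromal and progenitor medians are above 0 at 0 Gy and below 0 at 8 Gy.

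Among the miRNAs named by unadjusted p as higher with amifostine, the largest differences were those of miR-3070b-3p and miR-484, both dim. miR-3070b-3p was at -3.31 and -2.08 with amifostine and -4.31 and -4.54 with nilestriol, so that both amifostine arrays were above both nilestriol arrays. Its difference was 1.73 ± 0.45, a 3.32-fold ratio, at intensities of 12.1 to 54.8 units, and 0.97 without the irradiated amifostine array. Without the unirradiated amifostine array it was 2.49, and with normexp background correction 0.57. miR-484 was at -3.64 and -3.14 against -5.01 and -3.93, a difference of 1.08 ± 0.39. With the scanner software's own totals the miR-484 difference was -1.09. miR-101b-3p was at -2.92 and -2.22 against -3.47 and -2.84, and miR-500-3p at -1.63 and -1.09 against -2.17 and -2.07. miR-139-3p, miR-3058-5p and miR-697 were higher at 0 Gy by 0.85 to 1.11 and at 8 Gy by 0.13 to 0.18, so their differences came mostly from the unirradiated pair.

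miR-5105 and miR-714, whose probes have a GC content of 90.9 and 85.7%, and miR-3474 (56.2%) were lower with amifostine, chiefly at 0 Gy. miR-5105 was at 3.54 and 3.71 with amifostine and 5.75 and 4.39 with nilestriol. miR-714 was at -2.36 and -2.25 against 0.09 and -1.73. miR-3474 was at -2.57 and -1.28 against 0.46 and -0.45. The unirradiated nilestriol array was the highest of the 4 for each of them, by 0.91 to 1.82 over the next. Their differences over both doses were -1.44 ± 0.55, -1.49 ± 0.62 and -1.93 ± 0.78, and without that array -0.46, -0.37 and -0.57. Across the 371 miRNAs the difference had a Spearman correlation with the GC content of the probe of -0.21 at 0 Gy and -0.10 at 8 Gy. miR-3960, miR-211-3p, miR-338-3p and miR-148a-3p were also lower at both doses, with differences of -0.73, -0.77, -0.63 and -0.33.

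**Figure D4:**
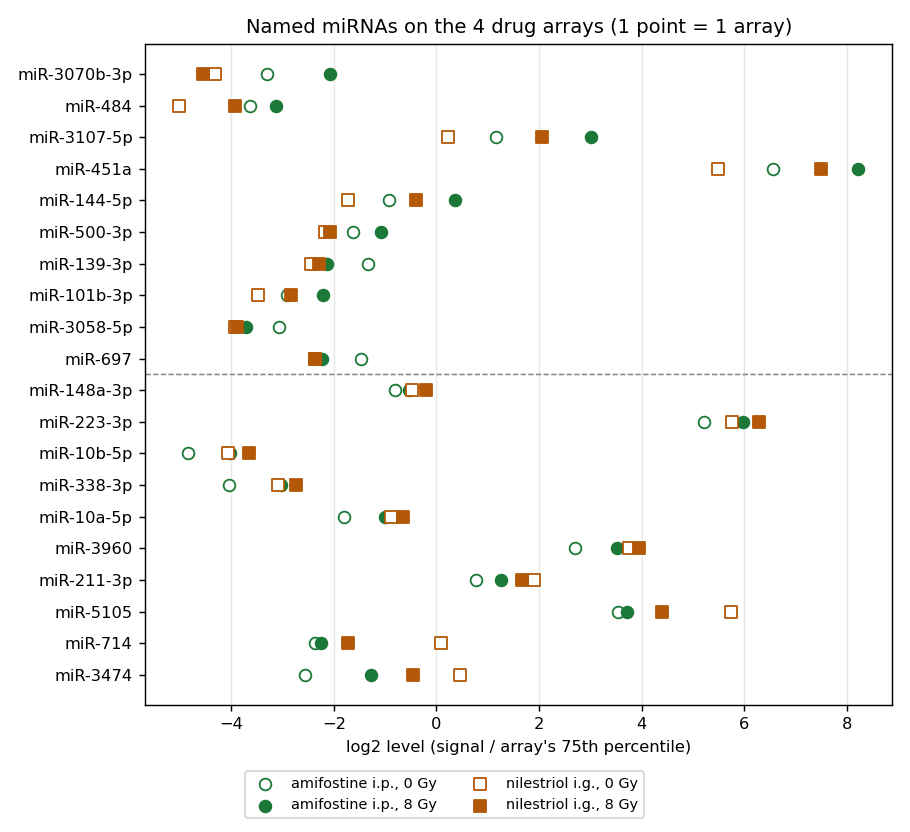
Log2 levels of the 20 named miRNAs on the 4 drug arrays, circles for amifostine and squares for nilestriol, open at 0 Gy and filled at 8 Gy, with the 10 higher with amifostine above the dashed line. The open squares of miR-714 and miR-5105 stand apart from the other 3 points of their rows, and both circles of miR-3070b-3p lie right of its squares.

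The miR-466, miR-467 and miR-669 families, which come from repeated copies within Sfmbt2 and from related loci, were higher with amifostine in 9 of 15 tested members at both doses and lower in 3. Over all tested miRNAs 33.4% were higher and 26.1% lower at both doses. miR-466q was at -1.01 and -1.43 with amifostine and -1.98 and -1.80 with nilestriol, and miR-467f at -0.36 and -0.72 against -1.27 and -1.14. The drug groups did not overlap in those 9, beside 13.7% of all tested miRNAs in that direction, nor in the 3 lower members, beside 12.1%. These miRNAs differ from each other by few bases, so their probes may share targets and they are not separate measurements. The list median was 0.83 at 0 Gy and 0.35 at 8 Gy, and -0.11 and -0.19 between the PBS routes. It was 0.21 without the unirradiated nilestriol array.

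The second question is whether irradiation separated the levels by a different amount under each drug. No miRNA passed (0 higher and 0 lower of 371, limma with Benjamini-Hochberg adjustment, smallest adjusted p = 0.180), and 72 had an unadjusted p under 0.05, 19 with a higher 8 minus 0 Gy difference with amifostine and 53 with a lower one (19.4% in all). Whatever their p, 146 had a higher difference with amifostine (39.4%) and 216 a lower one (58.2%). In simulated data this test called 0% of miRNAs made to differ by a log2 of 1 and 45% of those differing by 2. The simulated spread was that of the fit over both doses, not that of the PBS arrays. These shares may therefore not hold for the test on the real arrays. Both arms had positive 8 minus 0 Gy differences for 142 miRNAs (38.3%) and negative ones for 102 (27.5%). miR-34a-5p, a direct p53 target, was 2.28 higher at 8 Gy with amifostine and 2.63 higher with nilestriol, and 1.91 and 1.94 in the PBS arms. Its levels after 8 Gy were -0.33 and -0.38 with the 2 drugs. Of the 4 tested p53-responsive miRNAs, 2 were higher and 2 lower with amifostine at both doses, with medians of 0.11 and 0.02. The 6 erythroid miRNAs had median differences of 1.73 and 1.68.

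Of the 12 stromal and endothelial miRNAs tested 10, and of the 12 progenitor miRNAs 9, had larger 8 minus 0 Gy values with nilestriol than with amifostine, beside 58.2% of all tested miRNAs, and none passed the test. miR-126-3p, a regulator of endothelial integrity and stem cell quiescence, was at -1.29 and -0.88 with amifostine and at -1.89 and 0.28 with nilestriol. miR-199a-3p was at -2.86 and -2.35 against -3.87 and -1.67. miR-125b-5p, which expands stem cells when overexpressed, was at -2.18 and -1.78 against -2.90 and -0.95. In each the nilestriol array was the lowest of the 4 at 0 Gy and the highest at 8 Gy, so the amifostine value was higher at 0 Gy and lower at 8 Gy. The irradiation differences were -1.76 ± 0.60, -1.69 ± 0.49 and -1.55 ± 0.35 (limma, adjusted p = 0.278, 0.236 and 0.213). miR-100-5p was at -5.18 and -5.23 against the floor and -4.04. let-7e-5p, which belongs to the let-7 list and to neither of these lists, was at -3.82 and -3.54 against -4.56 and -2.47.

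Of the 12 stromal and endothelial miRNAs tested, 7 were at least 2-fold higher at 8 than at 0 Gy with nilestriol, 1 with amifostine and 0 in either PBS arm, beside 8.89%, 6.47%, 8.09% (PBS i.p.) and 1.62% (PBS i.g.) of all tested miRNAs. The exceptions to the larger nilestriol value were miR-140-3p and miR-140-5p in this list and miR-10a-5p, miR-10b-5p and miR-222-3p among the progenitor miRNAs. The stromal list's median 8 minus 0 Gy difference was 1.17 with nilestriol, 0.28 with amifostine, and -0.08 and -0.11 with PBS. For 8 of the 12 the amifostine level was higher at 0 Gy and lower at 8 Gy, beside 24.0% of all tested miRNAs. The list median of the drug difference was 0.29 at 0 Gy and -0.46 at 8 Gy. The 12 progenitor miRNAs, which share miR-126 and miR-100-5p with that list, had medians of 0.23 and -0.54. Several members, among them miR-152-3p and miR-199a-5p, were at the floor on the unirradiated nilestriol array, so their 8 minus 0 Gy differences there are lower bounds. The PBS arrays had miR-126-3p between -0.67 and 0.20, above the unirradiated value of both drugs.

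**Figure D5:**
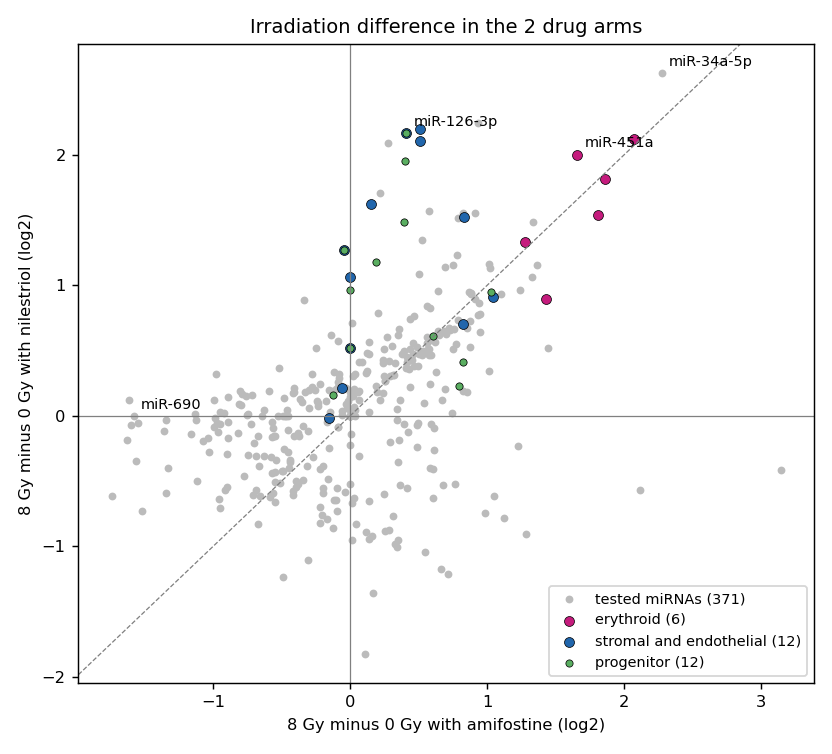
Log2 difference between 8 and 0 Gy with amifostine (horizontal axis) and with nilestriol (vertical axis), 1 point per tested miRNA (371), with the dashed line at equal differences. Erythroid miRNAs and miR-34a-5p lie near the line, and 10 of 12 stromal and endothelial and 9 of 12 progenitor miRNAs lie above it, such as miR-126-3p at 0.41 and 2.17.

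Outside these lists, the named miRNAs with the smallest p for the irradiation difference were mostly dim. miR-690, the brightest, was at 3.47 and 1.88 with amifostine and 2.30 and 2.29 with nilestriol, so the unirradiated amifostine array was the high one. Its irradiation difference was -1.58 ± 0.14 (limma, adjusted p = 0.180), and the PBS arms had 8 minus 0 Gy differences of -0.41 and -0.55. miR-5117-5p and miR-677-5p had the same pattern, with irradiation differences of -1.22 and -1.52. miR-152-3p had -1.47, with the unirradiated nilestriol array at the floor. With normexp background correction miR-677-5p had -0.15 and miR-152-3p -0.0088, and with the scanner software's totals -0.24 and -0.57. Higher irradiation differences with amifostine were those of miR-504-3p (2.69), miR-30c-1-3p (1.67), miR-664-5p (0.97) and miR-150-3p (0.88), all at or near the floor in the PBS arrays. With the scanner software's totals miR-30c-1-3p and miR-664-5p turned to -4.26 and -3.48.

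Markers of other tissues were few and dim. The 3 tested muscle miRNAs were higher with amifostine at both doses, beside 33.4% of all tested miRNAs. Summed signals of the muscle list were 0.23 and 0.41 against 0.12 and 0.30, and miR-1a-3p was at -3.20 and -2.28 against -4.25 and -2.69. The drug difference of the 3 muscle miRNAs had medians of 1.05 and 0.61, and the PBS route difference 0.66 and 0.86. Their median over both doses, 0.73, was 0.21 with the route difference subtracted and -2.07 with the scanner software's totals. The part of muscle RNA in the drug differences was not tested. Of 38 miRNAs of the Dlk1-Dio3 cluster on the array 3 were tested, with medians of 0.31 and -0.27, and of 10 epithelial miRNAs only miR-200c-3p, which differed by 0.22 and 0.28. The 2 neuronal miRNAs tested had medians of 0.28 and -0.13, and miR-192-5p, the tested liver miRNA, differed by under 0.01 at both doses. Of 5 tested inflammation miRNAs 2 were higher with amifostine at both doses, with medians of 0.04 and 0.03, and miR-146a-5p, a brake on Toll-like receptor signalling, was at -1.19 and -1.53 with amifostine against -1.96 and -1.07 with nilestriol.

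Few miRNAs were detected with 1 drug alone. miR-1927 was detected on both amifostine arrays, at intensities of 10.4 and 56.3, and on neither nilestriol array. It was detected on 0 PBS arrays and was not among the tested miRNAs. Averaged over the 2 doses its level was at least 1.24-fold higher with amifostine, and at 0 Gy alone there is no such bound. The bound sets its mean normalized log2 level against the lowest signal called well above background, and rests on the level at 8 Gy (-2.04), since the level at 0 Gy (-4.88) was under that signal. miR-3102-3p.2-3p and miR-872-5p were detected likewise, and miR-467d-3p and miR-468-3p on both nilestriol arrays and neither amifostine array, all 4 too dim to give a ratio.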

How the data were processed

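The authors deposited scanner files with fluorescence intensity per spot, which their headers attribute to Feature Extraction version 10.7.1.1, from Cy3-labelled RNA on 1-colour mouse miRNA arrays. A table of log2 values per miRNA, also deposited, served as an alternative. Its column medians were -3.07 to -3.00 and its upper quartile 3.43 on the 4 drug arrays, and its scaling is not given in the sources used here. Processed spot signals (4.45 to 4.64% of 49880 non-control spots per drug array left out as outliers) were averaged per probe and then over each miRNA's probes, and scaled by the 75th percentile of the 296 miRNAs that all 10 bone marrow arrays detected. Values were raised to a floor (the median over arrays of the detected miRNAs' 5th percentile), which held 7.52% of tested values. Detection followed the scanner software's flag, and a miRNA flagged on at least 5 of 10 arrays was tested.

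Tests used limma 3.58.1 (lmFit, eBayes) in R 4.3.3, with version 1.17.8 of the package for reading tables (data.table), two-sided, adjusted by Benjamini-Hochberg at 0.05. The difference over both doses was fitted on the 10 bone marrow arrays with drug and dose (5 residual degrees of freedom), the irradiation difference on group means with the PBS routes as the repeated arrays (2 residual degrees of freedom), which assumes that each drug array varies like the PBS pairs. The p-values measure the spread between arrays, not between mice. The miRNAs, lists and tests were chosen with earlier results of these data known. Named miRNAs are the 10 with the smallest p in each direction among those with the same sign at both doses, detected on all 4 arrays, the 4 in each direction for the irradiation difference, list members with large differences, and miRNAs detected with 1 drug alone. GC content is that of the probe sequence in the scanner files. The tests were run on simulated data. Alternatives covered scaling, background, summary, floor, filter, GC, the PBS route difference and each array left out in turn. Array number limits the precision. Hypothalamus arrays were not analysed here.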

Additional observations from a re-analysis of the deposited data

How the results depend on the processing

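The count of miRNAs passing over both doses was 0 under all 24 alternatives (limma, smallest adjusted p 0.061, without the irradiated nilestriol array), and 0 to 0 with single arrays left out. At an unadjusted p under 0.05 the 34 miRNAs became 4 with the PBS route difference subtracted, 121 without the irradiated nilestriol array, 20 without the unirradiated one, and 19 without the unirradiated amifostine array or with the authors' value table. The count for the irradiation difference, 0, was 12 with normexp background, 12 with scanner totals, 7 with the authors' table, 15 with an added offset and no floor, 40 with miRNAs detected on at least 1 array and 1 with a trended, robust eBayes, and 0 to 0 with single PBS arrays left out. The causes were not tested. The irradiation difference could not be estimated without an amifostine or nilestriol array, since each is the only array of its group. It was not fitted without a CBLB502 array. With route-matched PBS it could not be tested, for lack of residual degrees of freedom. The count of miRNAs 2-fold apart at both doses, 0, was 1 with quantile normalization (miR-3070b-3p), 1 without scaling (miR-3474), 5 with scanner totals, 9 with the authors' table and 1 with the route difference subtracted (miR-467f). Reversed values were miR-10b-5p at 0.026 with normexp and, with scanner totals, miR-484 at -1.09, miR-338-3p at 0.0016, and for irradiation miR-30c-1-3p at -4.26 and miR-664-5p at -3.48.

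The other 17 of the 20 named miRNAs kept their sign over both doses under all 24 alternatives. Several alternatives could not change a sign. The other filters, the other eBayes and the 4 drug arrays alone leave each miRNA's difference as it was. So do separate PBS routes and fits without a PBS or CBLB502 array. The 20 were also chosen for the same sign at both doses, so a kept sign was partly built in. List medians kept their sign under all alternatives for the erythroid, lymphoid, miR-17-92, let-7, miR-30, oestrogen receptor and Sfmbt2-type lists. Among the settings that leave each miRNA's difference unchanged, only the filters can move a list median. The median difference over all miRNAs was 0.08, and -0.09 without scaling, a shift of over 0.1. Without the unirradiated nilestriol array the medians were 0.20 (lymphoid), 0.21 (miR-17-92), 0.10 (let-7), 0.09 (miR-30) and 0.14 (oestrogen receptor), and the stromal one turned from 0.12 to -0.61. No paired analysis was possible because no group had replicates to pair by number. The drugs were matched by dose in the fit itself, and on the 4 drug arrays alone 22 miRNAs had an unadjusted p under 0.05 (limma, smallest adjusted p 0.457).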
